A study of Homo sapiens with 16 samples.

Results

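TALL-1 is an established human line grown from a T-cell acute lymphoblastic leukemia (T-ALL), in which immature T cells multiply without control, and it was taken by its cell line label as 1 of the 16 lines of the series. The reference is the other 15 lines, namely ALL-SIL, CCRF-CEM, DU528, HSB-2, JURKAT, KOPT-K1, LOUCY, MOLT-16, MOLT-4, P12-ICHIKAWA, PEER, PF-382, SKW-3, SUP-T11 and SUP-T13. All 16 lines were seeded at the same density and grown untreated in RPMI-1640 with 10% fetal bovine serum and antibiotics, and total RNA was taken after 24 hours and measured on 1 array. The labels give no mutation or other alteration for any line, and each line stands for a single leukemia. A difference between TALL-1 and another line therefore has no replicate error, and every spread given here is a spread between different leukemias. An exact permutation test of 1 line against 15 cannot give a p below 0.0625, so no test was run, and a fit that pools the spread between lines was not run either.

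NOTCH receptors are cut at the membrane after they bind a ligand, and the freed part enters the nucleus, joins the DNA-binding protein RBPJ and switches on target genes. In developing T cells this signal directs progenitors to the T lineage, and in T-ALL it is often switched on by mutation of NOTCH1.

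Levels are the deposited linear intensities, and differences are in units of log2(intensity + 16). The gap of a gene is the distance on that scale between TALL-1 and the nearest other line when TALL-1 lies outside their range, with a minus sign when it lies below. A gene was called set apart at a gap of 2 or more. Where several probe sets named 1 of the 19740 genes, the brightest on average stood for it, and a second probe set of a gene reads other parts of its transcript on the same array. Over all values of the table the median was 42.4, and 4 times that median (169) serves below as a mark of a clearly measured gene. The deposited table carries no detection calls, so no value can be called absent.

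The TALL-1 array was not unusual in its technical measures. Its median intensity was 42, against 37.6 to 45.0 in the other lines, and its 3'/5' ratio of ACTB, a measure of RNA integrity, was 1.69, against 1.44 to 2.03. The 9 hybridisation spike probe sets differed from the median of the other arrays by between -0.08 and 0.13 on the log2 scale. Most T-cell markers were clearly measured in TALL-1, with CD5 an exception. CD3D, a chain of the T-cell receptor complex, was 14041 in TALL-1 and between 7095 and 14179 in the other lines, and LCK, the kinase next to the receptor, was 7373 in TALL-1 and between 942 and 14199 elsewhere. CD7, an early T-cell antigen, was 3459 in TALL-1 and between 208 and 4917 elsewhere. CD5, another T-cell antigen, was only 65.9 in TALL-1, at rank 13, and between 9.50 and 2421 elsewhere. Its second probe set read 79.8 in TALL-1 and 38.5 to 459 elsewhere. Of the markers of other cell types, 0 of 8 myeloid, 0 of 6 erythroid and megakaryocytic, 0 of 8 stromal and 0 of 6 epithelial genes reached 169 in TALL-1. Of all 19740 genes 8255 reached it there, and 10848 did in any line. Only 2 of these myeloid, 2 erythroid and megakaryocytic, 3 stromal and 2 epithelial genes reached 169 in any line. The counts of 0 therefore say little about TALL-1 in particular. Among B-cell genes 1 of 8 reached 169 in TALL-1, CD79A (249 in TALL-1, against 215 to 411). Among natural killer and cytotoxic genes 2 of 11 did, NKG7 (224, against 8.96 to 4915) and KLRF1 (300.2, against 11.4 to 627). In any line 5 of these B-cell genes and 7 of these natural killer and cytotoxic genes reached 169. The summed intensities of the B-cell and myeloid markers were 455 and 126 in TALL-1, against 432 to 2536 and 110 to 2163 in the other lines.

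In TALL-1, genes far below all other lines outnumbered those far above them. It lay 2 or more below every other line in 37 genes (0.187% of all genes) and 2 or more above every other line in 12 genes (0.0608%). Over the other 15 lines the number of genes set apart low ran from 1 to 53 with a median of 7, and that of genes set apart high from 1 to 70 with a median of 9. Only SUP-T11, with 53, had more genes set apart low than TALL-1, and DU528 and ALL-SIL were close to it with 36 and 33. For genes set apart high TALL-1 was the seventh of the 16 lines.

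**Figure D1:**
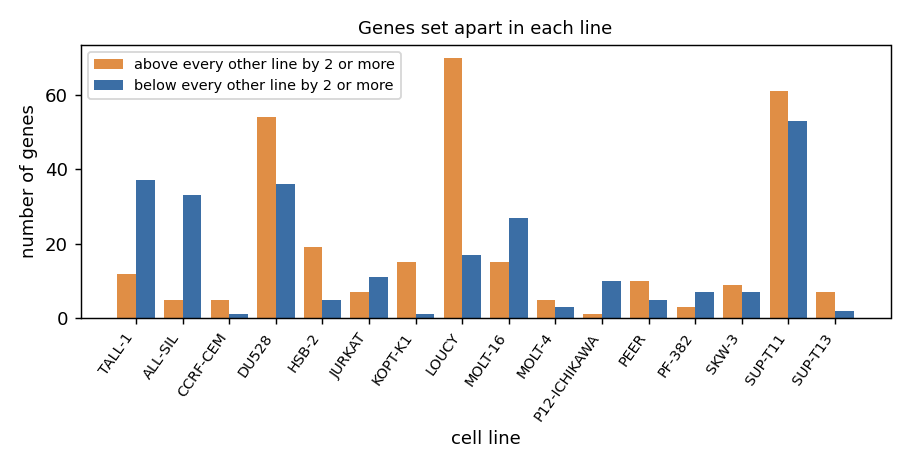
Number of genes (vertical axis) that lay 2 or more log2 units above every other line or below every other line, for each of the 16 lines. TALL-1, at the left, had 12 genes above and 37 below, while the other lines had 1 to 70 above and 1 to 53 below.

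The widest gaps below the other lines were those of CRNDE and YBX3, whose TALL-1 values were near the bottom of the scale while every other line was high. CRNDE, a long noncoding RNA gene, was 7.30 in TALL-1, against a lowest value of 3931, a median of 6692 and a highest of 8275 in the other 15 lines (gap -7.40). Its second probe set read 3.08 in TALL-1, against 1618 to 5021 elsewhere (gap -6.42). YBX3, a cold-shock domain protein that binds DNA and RNA, was 7.86 in TALL-1, against 3905, 6238 and 9136 as lowest, median and highest of the other lines (gap -7.36), and a second probe set gave a gap of -5.20. In both genes TALL-1 was far outside a narrow range of the other lines, and the groups did not overlap on either of these probe sets. The other 2 YBX3 probe sets were dim in every line, at most 97.4.

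The promoters of these 2 genes show the kind of start region that most of the low genes had, rich in CG pairs. The sequences are from RefSeq on GRCh38.p14, 5' to 3' in the direction of the gene, from 250 bases before to 50 after its start, with every CG pair in capitals. They lie at chr16:54928837-54929136 and chr12:10723274-10723573, both on the minus strand, and hold 44 and 32 CG pairs.
CRNDE: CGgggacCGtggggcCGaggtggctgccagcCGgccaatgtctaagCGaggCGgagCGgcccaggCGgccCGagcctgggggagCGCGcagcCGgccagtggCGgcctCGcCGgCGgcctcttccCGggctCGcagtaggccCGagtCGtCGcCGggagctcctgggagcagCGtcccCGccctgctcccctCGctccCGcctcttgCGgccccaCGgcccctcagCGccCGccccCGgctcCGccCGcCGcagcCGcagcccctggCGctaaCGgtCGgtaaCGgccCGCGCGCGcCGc
YBX3: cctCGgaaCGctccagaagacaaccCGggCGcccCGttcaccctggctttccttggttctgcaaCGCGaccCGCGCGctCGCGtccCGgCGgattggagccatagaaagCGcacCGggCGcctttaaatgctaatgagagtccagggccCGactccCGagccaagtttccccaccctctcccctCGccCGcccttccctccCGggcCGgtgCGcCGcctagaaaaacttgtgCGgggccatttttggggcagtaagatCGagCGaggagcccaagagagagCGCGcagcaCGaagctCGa

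Of the 37 genes set apart low, 33 had a promoter in the table, and 30 of these (90.9%, exact 95% interval 75.7% to 98.1%) were rich in CG, taken as a GC content of at least 50% and an observed over expected CG ratio of at least 0.6. The share was 64.4% over all measured genes with a promoter. A gene can lie 2 below every other line only if all of these read at least 48, which held for 8295 genes, and 85.5% of those with a promoter were rich in CG. That share lies inside the interval of the low genes. Beyond this minimum the 8295 genes were not matched to the low genes in level. The interval treats the 33 promoters as independent, and a difference between the shares was not tested. Of the 12 genes set apart high, 6 of the 10 with a promoter were rich in CG (60.0%, exact 95% interval 26.2% to 87.8%).

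The low genes are grouped here by known function, a grouping made after their values were seen, beginning with the cytoskeleton and membrane traffic. MYH10, a nonmuscle myosin heavy chain, was 11.7 in TALL-1, against 1004, 3361 and 5278 as lowest, median and highest elsewhere (gap -5.20, and -3.04 on its second probe set). JMY, an actin nucleation factor, was 19.9 in TALL-1 and 409 to 1284 elsewhere, and the actin scaffold gene IQGAP2 was 64.6 in TALL-1 and 596 to 6709 elsewhere. MAP7D3, which encodes a microtubule-associated protein, was 17.8 in TALL-1 and 318 to 1115 elsewhere. RAB23, a small GTPase of membrane traffic, was 20.4 in TALL-1 and 315 to 828 elsewhere. REEP3, which acts at the endoplasmic reticulum, was 6.01 in TALL-1 and 281 to 1026 elsewhere, and VAMP5, a vesicle fusion protein gene, was 3.98 in TALL-1 and 79.7 to 1489 elsewhere. On the representing probe sets TALL-1 was the lowest line in each of these 7 genes, and only IQGAP2 among them exceeded the table median in TALL-1. The second REEP3 probe set did not repeat this, with 52.4 in TALL-1 (rank 11) and 21.9 to 142 elsewhere. That of IQGAP2 was dim in every line, with 31.7 in TALL-1 and 3.54 to 31.2 elsewhere. The further probe sets of JMY and RAB23 again had TALL-1 lowest, as did that of MYH10.

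Signalling and transcription genes came next. PRKD3, a serine/threonine kinase of the protein kinase D family, was 14.5 in TALL-1, against 718, 1351 and 2116 as lowest, median and highest elsewhere (gap -4.59). SMAD5, which carries signals of bone morphogenetic proteins to the nucleus, was 6.78 in TALL-1, against 359, 1170.4 and 1545 (gap -4.04), and all 4 of its other probe sets also had TALL-1 lowest, with gaps from -2.79 to -0.43. NFATC2, a transcription factor that calcineurin activates after receptor signals, was 7.64 in TALL-1, against 129.9, 989 and 1764 (gap -2.63). RCAN3, a calcineurin regulator, was 13.3 in TALL-1 and 376 to 6244 elsewhere (gap -3.75). NFIL3, a transcription factor of lymphoid development, was 10.2 in TALL-1 and 104 to 2248 elsewhere (gap -2.20). The phosphoinositide kinase gene PIP4K2C was 10.1 in TALL-1 and 270.4 to 762 elsewhere, and DGKH, a diacylglycerol kinase gene, was 12.8 and 102 to 772. On the representing probe sets of all 7 genes TALL-1 lay below the table median and every other line above it. A further PRKD3 probe set read 104 in TALL-1 and 128 to 604 elsewhere (gap -0.26), while another gave a gap of -2.74. For DGKH a further probe set read 102 in TALL-1, at rank 13, and 74.5 to 217 elsewhere.

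Chromatin genes were among the low ones too. MIER3, a member of a corepressor family, was 3.07 in TALL-1, against 447, 644 and 1087 as lowest, median and highest elsewhere (gap -4.60), and 2 further probe sets gave gaps of -3.20 and -2.72. SFMBT2, a Polycomb group gene, was 22.0 in TALL-1 and 279.6 to 2541 elsewhere (gap -2.96). For KDM4B, a histone lysine demethylase gene, the probe sets disagreed. The representing one read 33.1 in TALL-1 and 362 to 1153 elsewhere (gap -2.95), another 56.2 in TALL-1 and 129.8 to 249.8 elsewhere, and one more 969 in TALL-1 and 181 to 458 elsewhere, which makes TALL-1 the highest line there by 1.06. KDM4B is therefore not counted as low throughout its transcript. DCUN1D4, whose product helps to attach NEDD8 to cullins, was 2.11 in TALL-1 and 344 to 1684 elsewhere (gap -4.31).

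Metabolic genes in the set were CYP2R1, a vitamin D hydroxylase, with 5.15 in TALL-1 and 258 to 1591 elsewhere, CHPT1, an enzyme of phosphatidylcholine synthesis, with 19.7 and 216 to 3874, and TIGAR, a fructose bisphosphatase that restrains glycolysis, with 19.1 and 201 to 992. PPARGC1B, a coactivator of mitochondrial genes, was 11.2 in TALL-1 and 129.6 to 528 elsewhere, and MUL1, a mitochondrial ubiquitin ligase gene, was 9.22 and 132 to 447. Gaps of these 5 genes ran from -3.69 for CYP2R1 to -2.42 for PPARGC1B. Noncoding RNA genes besides CRNDE were DLEU1, with 11.8 in TALL-1 and 666 to 1866 elsewhere (gap -4.62), and CHROMR, with 2.89 and 233 to 1138 (gap -3.72). The other low genes were BIVM, ITPRID2, HYLS1, SESTD1, PGAP1, ZNF322, FARP2, JPH1, LRFN3 and DORIP1. Their TALL-1 values ran from 2.81 to 42.3 and their gaps from -4.62 in BIVM to -2.09 in DORIP1.

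**Figure D2:**
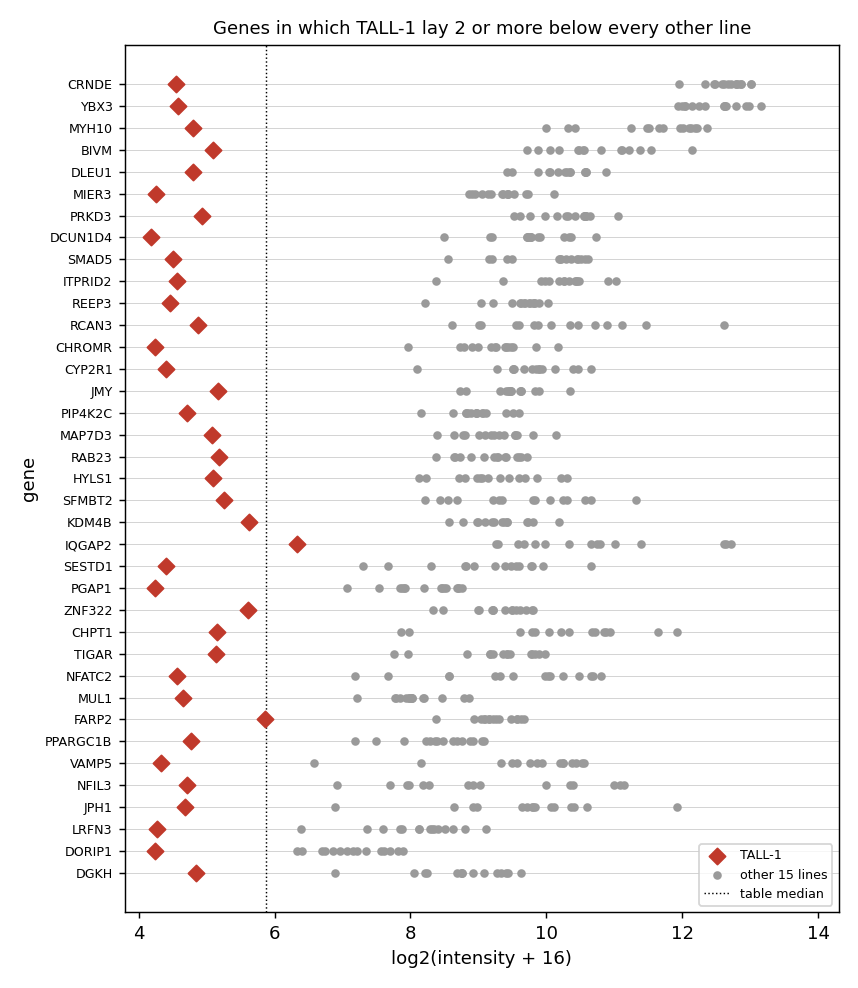
Values on the log2(intensity + 16) scale (horizontal axis) of the 37 genes in which TALL-1 lay 2 or more below every other line, sorted by gap. Red diamonds are TALL-1, grey points the other 15 lines, and the dotted line the table median. IQGAP2 is the low gene with the highest TALL-1 value (64.6), and CRNDE and YBX3 at the top have the widest gaps.

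Second probe sets agreed in part with the representing ones. Of the 37 low genes 30 had at least 1 further probe set, 73 in all, and TALL-1 was the lowest line on 47 of these 73. The gap again reached 2 on 14 of the 73, from 10 genes. TALL-1 was the highest line on 4 of the 73, the bright KDM4B probe set above and 3 dim ones, 1 each of CHROMR, IQGAP2 and KDM4B. When each gene was given the mean of all its probe sets, dim ones included, 16 genes were set apart low. All 16 were among the 37, while BIVM (gap -1.91), PRKD3 (-1.82), ITPRID2 (-1.87), REEP3 (-1.56), CHROMR (-1.80), CYP2R1 (-1.85), MAP7D3 (-1.99), RAB23 (-1.95) and SFMBT2 (-1.45) were among those that missed the threshold.

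**Figure D3:**
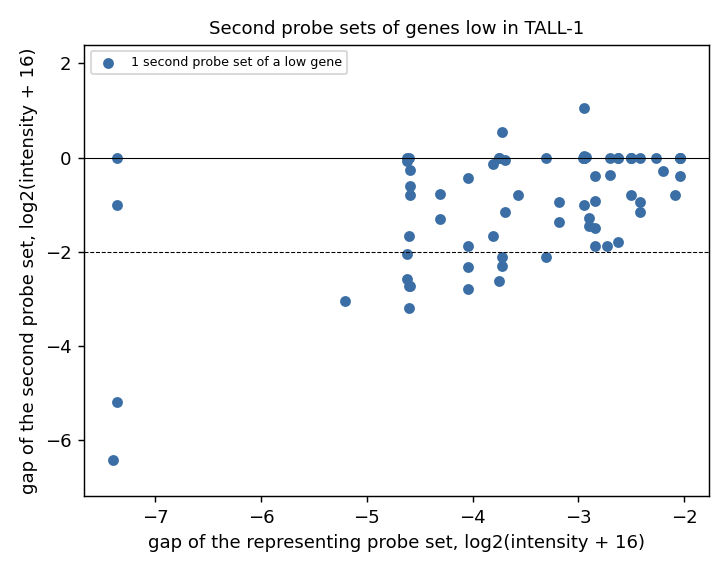
Gap of each second probe set (vertical axis) against the gap of the probe set that represents the gene (horizontal axis), both in log2(intensity + 16), for genes set apart low in TALL-1. Each point is 1 of the 73 second probe sets, and a value of 0 means that TALL-1 lay within the range of the other lines. Of the 73 points 47 lie below 0, 14 of them at or below the dashed line at -2, and 4 lie above 0.

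The low genes lay on 17 chromosomes. Chromosome 2 held 7 of the 37 (18.9%), against 6.63% of all genes, and chromosome 5 held 5 (13.5%), against 4.50%. None was next to another, since 0 of their 74 nearest measured neighbours were themselves set apart low, and with 0.187% of all genes in the set so few neighbours are no result about position. Among the 34 neighbours that were clearly measured in the other lines, TALL-1 was lowest in 6 and lay 1 or more below every other line in 2, NIPAL3 next to RCAN3 and GDAP1 next to JPH1. Over all 8414 genes so measured TALL-1 was lowest in 9.51% and lay 1 or more below every other line in 0.856%. IRX5, which lies 1979 bases from CRNDE, was 10.3 in TALL-1, against 29.0, 600.1 and 1658 as lowest, median and highest elsewhere (gap -0.77). POGLUT2, which lies 143 bases from BIVM, was 6.77 in TALL-1, against 17.4, 377 and 2654 (gap -0.55). The median difference between TALL-1 and the median of the other lines was -0.27 over the 34 neighbours and -0.01 over the 8414 genes. NIPAL3, IRX5 and POGLUT2 were singled out after their values were seen.

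Genes set apart high were fewer and mostly moderate in level. MYOM2, a protein gene of the muscle M-band, was 3098 in TALL-1, against 50.7, 210.0 and 372 as lowest, median and highest elsewhere (gap 3.00). ARRDC4, an arrestin-domain gene, was 3281 in TALL-1, against 7.56, 119 and 799.6 (gap 2.02), and C1orf54 was 1172 in TALL-1, against 41.6, 65.1 and 229 (gap 2.28). These 3 genes had the highest TALL-1 values of the set. SHC3, an adaptor of receptor tyrosine kinases, was 539 in TALL-1 and 3.66 to 80.4 elsewhere (gap 2.53), CPA4, a carboxypeptidase gene, was 313 and 17.7 to 39.4 (gap 2.57), and PRKG2, a cyclic GMP-dependent kinase gene, was 315 and 16.1 to 51.5 (gap 2.30). The noncoding RNA genes PRDM16-DT (769 in TALL-1, 20.5 to 169 elsewhere) and OLMALINC (544, 20.8 to 107) were also in the set, as were MYMX, a muscle cell fusion gene (189.9, 7.15 to 30.8), COL5A3, a collagen gene (128, 1.90 to 19.7), SLC35F4 (116, 3.19 to 15.8) and HES5. The last 3 of these stayed below 169 in TALL-1. With log2(intensity + 64) 9 of the 12 missed the threshold, at gaps from 1.18 in SLC35F4 to 1.95 in ARRDC4, while MYOM2, SHC3 and C1orf54 passed it. Only 3 of the 12 genes had further probe sets. All 3 further probe sets of PRDM16-DT had TALL-1 highest (gaps 1.12, 2.05 and 2.21), while those of SHC3 gave gaps of 1.04 and 0.00 and that of COL5A3 0.23. Of the 24 nearest measured neighbours of the high genes 0 were set apart high, against 0.0608% of all genes. PRDM16, 1478 bases from PRDM16-DT, was 1388 in TALL-1, against 2.18, 12.5 and 606 as lowest, median and highest elsewhere (gap 1.17). It was singled out after its values were seen.

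**Figure D4:**
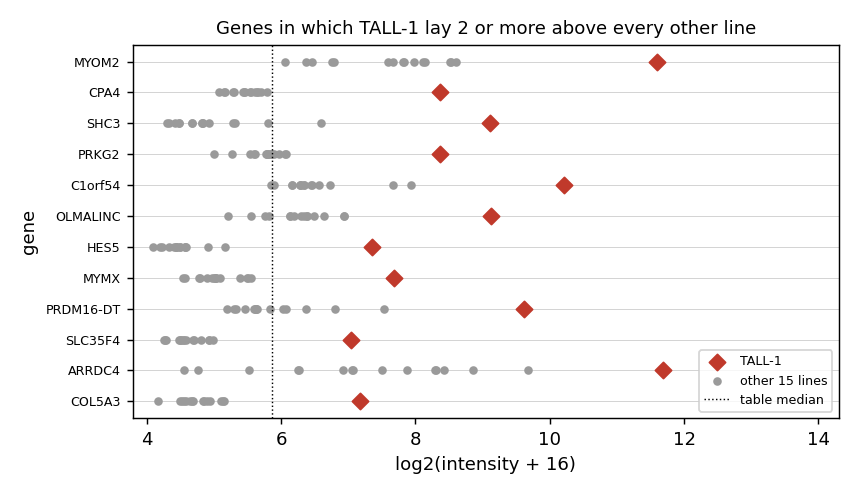
Values on the log2(intensity + 16) scale (horizontal axis) of the 12 genes in which TALL-1 lay 2 or more above every other line, sorted by gap. Red diamonds are TALL-1, grey points the other 15 lines, and the dotted line the table median. MYOM2 has the widest gap (3.00), and in ARRDC4 the other lines spread from 7.56 to 799.6.

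Just outside the threshold were NINL, a centrosome gene (5909 in TALL-1, 39.2 to 1499.6 elsewhere, gap 1.97), and GDAP1 (65.2 in TALL-1, 305 to 926 elsewhere, gap -1.98), and just inside were COL5A3 (2.01) and DGKH (-2.04). NINL was brighter in TALL-1 than any of the 12 genes set apart high. Next below the threshold came APOLD1 (gap 1.84) and ANKRD20A11P (1.84) among the high genes, and ATRN (-1.95) and FSD1L (-1.93) among the low ones.

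TALL-1 was the highest line for many NOTCH target genes. Of 18 listed targets, NOTCH3 being counted among them as well as among the receptors, TALL-1 was the highest line in 9 and the lowest in 2, against 8.98% and 7.91% of all genes. It lay 1 or more above every other line in 3 of the 18 targets, against 0.274% of all genes, and above the median of the other lines in 13 of 18, against 9750 of 19740 genes. The median difference from the median of the other lines was 1.22 over the targets and 0.00 over all genes. The list was drawn up with earlier results of these arrays known, so its direction is not independent evidence.

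The HES and HEY genes encode repressors that NOTCH switches on directly. HES4 was 3036 in TALL-1, against 3.13, 141 and 1187 as lowest, median and highest elsewhere (gap 1.34, nearest line KOPT-K1). HES5 was 147 in TALL-1, against 1, 5.89 and 20 (gap 2.18), the only member of the list that was set apart, although with log2(intensity + 64) its gap was 1.33. HEY1 was 659 in TALL-1, against 9.58, 23.0 and 602 (gap 0.13), the high value elsewhere being that of LOUCY, and its second probe set had the same 2 lines on top with a gap of 0.33. HES1, in contrast, was 1301 in TALL-1, only the fourth of 16 lines, with 15.99 to 3327 elsewhere. HEYL (74.1 in TALL-1, 39.3 to 99.3 elsewhere) and HEY2 (6.80, 2.85 to 92.3) were low in TALL-1 as in most lines.

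The promoters of HES4 and HES5, the 2 HES genes with TALL-1 highest by 1 or more, both hold the core TGGGAA of the RBPJ binding motif, searched on both strands. In the sequences below (RefSeq, GRCh38.p14, minus strand, chr1:1000048-1000347 and chr1:2530214-2530513) the motif is in capitals, also where it reads as TTCCCA on the opposite strand. On the coding strand it ends 70 bases before the start of HES4 and 74 before that of HES5, and HES5 holds a further copy on the opposite strand. Of the 16 NOTCH targets with a RefSeq promoter, 6 held the core (37.5%), against 24.3% of all 27305 promoters of the same length. The other 4 were HES1, HEY2, HEYL and FJX1, of which TALL-1 was the highest line for 0 and the lowest for FJX1.
HES4: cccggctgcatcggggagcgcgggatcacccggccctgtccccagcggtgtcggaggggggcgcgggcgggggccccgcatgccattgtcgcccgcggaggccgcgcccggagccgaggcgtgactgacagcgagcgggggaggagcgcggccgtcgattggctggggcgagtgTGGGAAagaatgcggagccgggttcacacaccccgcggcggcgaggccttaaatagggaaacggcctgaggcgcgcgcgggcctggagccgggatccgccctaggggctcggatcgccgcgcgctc
HES5: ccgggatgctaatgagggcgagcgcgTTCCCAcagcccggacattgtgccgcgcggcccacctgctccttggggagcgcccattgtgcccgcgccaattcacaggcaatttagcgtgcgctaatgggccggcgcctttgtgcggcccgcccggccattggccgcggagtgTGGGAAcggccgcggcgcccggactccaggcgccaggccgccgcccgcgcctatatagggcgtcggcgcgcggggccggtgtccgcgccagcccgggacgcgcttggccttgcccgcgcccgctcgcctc
The core was not found in the promoters of NRARP, NOTCH3 and IL7R. A match is a description of letters, and its absence from this window says nothing about binding.

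Among receptors and feedback regulators, NOTCH3 was 3955 in TALL-1, against 7.30, 303 and 2025 as lowest, median and highest elsewhere (gap 0.96, nearest line ALL-SIL). Its second probe set was dim in all lines, 59.5 in TALL-1 and at most 75.1 elsewhere, with TALL-1 at rank 3. NOTCH1 itself was 3581 in TALL-1, the fourth of 16 lines, with 36.3 to 4116 elsewhere, and NOTCH2 was 1215 in TALL-1 and 44.1 to 3359 elsewhere. NRARP, which limits NOTCH signalling, was 498 in TALL-1, against 10.5, 23.3 and 232 (gap 1.05). DTX1, a NOTCH-induced ubiquitin ligase gene, was 2367 in TALL-1, second to KOPT-K1, with 18.2 to 4490 elsewhere. The receptor NOTCH1 was not highest in TALL-1, while NOTCH3, HES4, HES5 and NRARP were.

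Several other targets, some of them genes of T-cell growth, were also high in TALL-1, with different lines next to it. IL7R encodes a chain of the receptor for a T-cell growth factor and was 3879 in TALL-1, against 15.9, 232 and 3303 (gap 0.23, nearest line KOPT-K1). PTCRA, the surrogate chain of the pre-T-cell receptor, was 984 in TALL-1, against 164, 276 and 821 (gap 0.26), and on its further probe sets TALL-1 was again highest, with 816 against 13.7 to 548 and 1952 against 27.7 to 1485. CCND3, a D-type cyclin, was 8435 in TALL-1 and 1166 to 7606 elsewhere, LZTFL1 was 3113 and 184 to 2702 (but 1208 and 167 to 1831 on another bright probe set, where TALL-1 was at rank 7), and IGF1R, a growth factor receptor, was 2222 and 65.9 to 2296. Not all targets were high, since TALL-1 was the lowest line for CR2 (2.87, with 4.82 to 1131 elsewhere) and FJX1 (2.95, with 6.99 to 200.5), and SHQ1 (1681, with 907 to 5269) and TRIB2 (479, with 313 to 6040) lay below the median of the other lines.

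**Figure D5:**
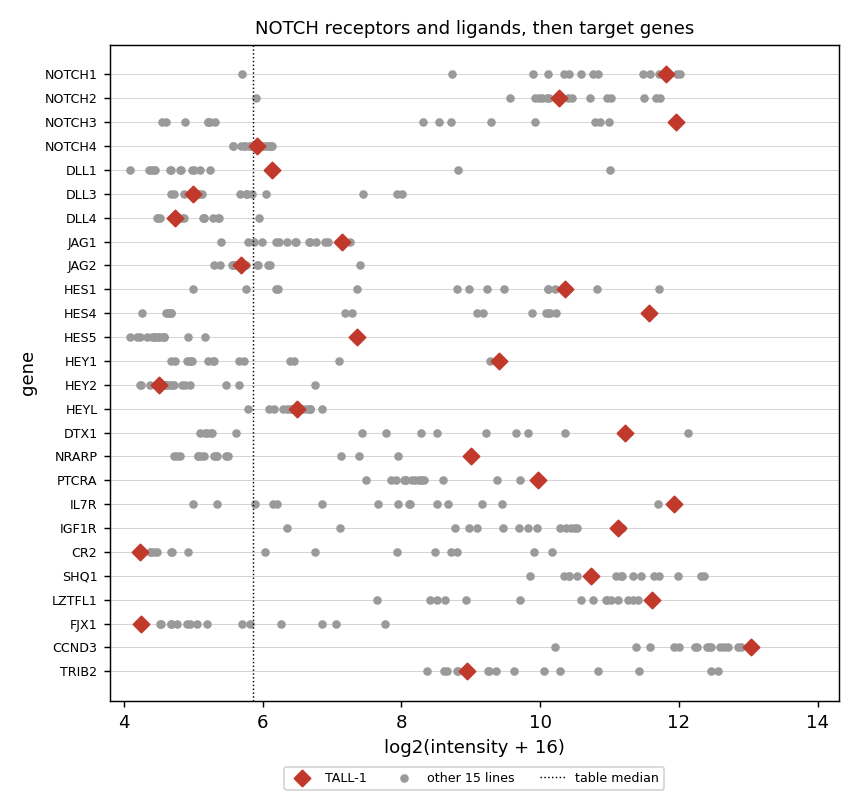
Values on the log2(intensity + 16) scale (horizontal axis) of the NOTCH receptors and ligands and of the listed target genes. Red diamonds are TALL-1, grey points the other 15 lines, and the dotted line the table median. TALL-1 is the highest line for NOTCH3, HES4, HES5, HEY1, NRARP, PTCRA, IL7R, LZTFL1 and CCND3, and the lowest for CR2 and FJX1.

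Ligands and processing genes did not stand out in the same way. Of 9 receptors and ligands TALL-1 was highest for NOTCH3 alone, and the list's median difference was 0.05. The ligand gene DLL1 was 54.0 in TALL-1 and 1 to 2043 elsewhere, and JAG1 was 126 and 26.2 to 137. Of 19 cleavage, modification and nuclear partner genes TALL-1 was highest for 3 and lowest for 2, against 8.98% and 7.91% of all genes. Their median difference was -0.02, with 0 genes at a gap of 1. NUMB, an inhibitor of NOTCH, was 260 in TALL-1 and 27.1 to 150.5 elsewhere (gap 0.73). LFNG and MFNG, whose products add sugars to NOTCH, were lowest in TALL-1, MFNG with 288 against 380 to 2474 elsewhere (gap -0.38, and -0.37 on a second probe set). LFNG was 1.49 in TALL-1 and 3.62 to 1196 elsewhere (gap -0.17). Its lowest values lie at the bottom of the scale, where the order of lines carries little meaning. FBXW7, which marks NOTCH1 for degradation, was 547 in TALL-1 and 4.09 to 2928 elsewhere, and RBPJ was 2014 and 937 to 3318.

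Few of the oncogenic transcription factors of T-ALL were clearly measured in TALL-1. TAL1 was 17.1 in TALL-1 and 14.7 to 3586 elsewhere, LMO2 was 14.1 and 8.68 to 6805, MYCN was 7.98 and 6.33 to 5120, and LYL1 was 79.9, the lowest of all lines, with 103 to 3655 elsewhere. Of 19 such factors TALL-1 was highest for 0, against 8.98% of all genes, and the median difference was -0.16. Of these factors 2 reached 169 in TALL-1, against 8255 of all 19740 genes, and only 10 reached it in any of the 16 lines. The 2 were MYB (8352 in TALL-1, at rank 7) and MYC (3638, at rank 15), both bright in TALL-1. PBX3, a partner of HOX proteins, was 9.16 in TALL-1, against 58.2, 786 and 1983 as lowest, median and highest elsewhere (gap -1.56). Of 30 T-lineage transcription factors TALL-1 lay above the median of the other lines in 11, against 9750 of all 19740 genes. The median difference was -0.23, but 0.01 with the mean of all probe sets. By the mean of the list TALL-1 was at rank 15 of 16 lines. ID2, an inhibitor of E proteins, was 82.1 in TALL-1 and 84.9 to 10156 elsewhere, and IKZF2, an Ikaros family factor, was 901 in TALL-1 and 1277 to 4931 elsewhere, TALL-1 being the lowest line for both. IKZF3, of the same family, was 14.2 in TALL-1, against 5.08, 269 and 1654 as lowest, median and highest elsewhere, and ETS2 was 158, against 27.3, 1166 and 5719. BCL11B and GATA3, factors of T-cell commitment, were on the higher side, with 6307 in TALL-1 and 300.2 to 6832 elsewhere for BCL11B and 3946 and 929.6 to 4616 for GATA3.

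Thymocyte stage genes were mixed. DNTT, the polymerase of receptor gene joining, was 4769 in TALL-1, at rank 3 of 16 lines, with 40.5 to 13597 elsewhere, and CD8A was 1137 and 8.16 to 3841. The recombinase genes were near the bottom of the lines, RAG1 being 8.84 in TALL-1 and 6.96 to 3415 elsewhere and RAG2 2.64 and 6.16 to 553. The adhesion gene CD2 was 2160 in TALL-1 and 11.1 to 5051 elsewhere, whereas the costimulator CD28 was 7.16, the lowest of all lines, with 9.52 to 1743 elsewhere. The integrin gene ITGA1 was 2782 in TALL-1, against 2.07, 23.8 and 1292 as lowest, median and highest elsewhere (gap 1.10), with KOPT-K1 next on all 3 of its probe sets. SELPLG, the selectin ligand, was 108 in TALL-1 and 203 to 2596 elsewhere (gap -0.82).

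TALL-1 lay 1 or more below every other line in 77 genes (0.39%), and the tumour suppressor and survival lists held 2 of them, PHF6 and BIK. PHF6, an X-linked chromatin gene that is often mutated in T-ALL, was 803 in TALL-1, against a narrow 3052, 3948 and 4485 as lowest, median and highest elsewhere (gap -1.91). PHF6 was still well over 169 in TALL-1, and its second probe set was dim in all lines (45.5 in TALL-1, 56.1 to 102.6 elsewhere, gap -0.23). The death receptor FAS was 17.7 in TALL-1 and 49.8 to 1405 elsewhere (gap -0.97), with TALL-1 lowest on 3 of its 4 other probe sets, and BIK, a gene that promotes apoptosis, was 23.4 and 67.3 to 1336 (gap -1.08). BCL2L1, which protects from apoptosis, was 2421 in TALL-1 and 262 to 1425 elsewhere (gap 0.76) and was highest in TALL-1 on all 4 of its probe sets. CDKN2A was 2296 in TALL-1, at rank 3 of 16 lines, with 8.30 to 3675 elsewhere.

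Cytokine signalling genes were low in part. STAT5A was 41.7 in TALL-1 and 31.6 to 5431 elsewhere, and SOCS2, a gene that STAT5 induces, was 55.7, the lowest of all lines, with 83.1 to 8378 elsewhere. IFNGR2, a chain of the interferon gamma receptor, was 3974 in TALL-1 and 72.1 to 2145 elsewhere (gap 0.88). Of the 14 HLA class I genes 12 lay below the median of the other lines, with a median difference of -0.68. Over all genes 9750 of 19740 lay above it. TALL-1 was lowest for TAP2 (221, with 318 to 1224 elsewhere). On the dimmer further probe sets of TAP2 it was not lowest, at ranks 14, 15 and 7. RASGRP1, an activator of RAS, was 155 in TALL-1 and 112 to 10418 elsewhere, and SPRY1, an inhibitor of the same pathway, was 28.1 and 38.6 to 1372. PSAT1, an enzyme of serine synthesis, was 14.1 in TALL-1 and 4.88 to 10856 elsewhere. Proliferation genes had a median difference of 0.11 over 16 genes, MKI67 being 3266 in TALL-1 and 1288 to 4284 elsewhere. The lists not described here had median differences between -0.34, for the 3 measured genes of the HOXA list, and 0.45, for cortical thymocyte genes.

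Correlations with the other lines were small. Across the 10848 genes that reached 169 in any line, each centred on its mean, the correlation with TALL-1 was highest for ALL-SIL (r = 0.17), P12-ICHIKAWA (0.11) and KOPT-K1 (0.08) and lowest for HSB-2 (-0.24), with a median of -0.12. Centring over the same 16 lines alone puts the correlation of unrelated lines at about -0.07, and the genes are not independent, so these values only describe the arrays. Genes that TALL-1 shared with exactly 1 other line, both lying 2 or more beyond the remaining 14, gave a second view. There were 32 such low genes, 8 with LOUCY, 7 with ALL-SIL and 4 each with DU528, SUP-T11 and MOLT-16, and 6 such high genes, 4 of them with KOPT-K1. The genes shared high with KOPT-K1 were IL7R, ITGA1, CD300A and PPEF1, and with KOPT-K1 left out 19 genes were set apart high, against 12 with it. CD300A, an inhibitory receptor gene, reached 7217 in TALL-1, 5413 in KOPT-K1 and no more than 1267 in any of the remaining 14 lines. SMIM20, low in TALL-1 (5.78) and ALL-SIL (2.95), was 742 to 1499 in the other 14 lines. TET2, an enzyme gene of DNA demethylation that is often mutated in blood cancers, was 9.66 in TALL-1 and 16.1 in LOUCY, with 326 to 898 in the others. CD300A, PPEF1, SMIM20 and TET2 were singled out after their values were seen.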

How the data were processed

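Intensities of 54675 probe sets on 16 arrays (Affymetrix U133 Plus 2.0 design) were read from the value table that the authors deposited. Per the labels' protocols, RNA was labelled with biotin by the maker's standard method. For the deposited intensities, the software, background correction and scaling were not given in the sources used here. Values ran from 0.6 to 24485 and were analysed as log2(intensity + 16) without further normalization.

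Of the probe sets, 62 were controls, 41097 named 1 gene in the platform annotation (41048 matched RefSeq), 1801 named several and 11721 were unlisted. Genes of chromosome Y and XIST were left out. TALL-1 was compared with the other 15 lines by the gap to the nearest line, with a threshold of 2. No test was run.

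Named genes were at most 20 with the largest gap in each direction, the 3 just under the threshold, members of fixed lists at a gap of 1 or more and at most 4 further members per list by difference from the median of the other lines. The NOTCH lists could be named in full. Other low genes, MYB, MYC, PRDM16, and values of T-cell and stage markers, are named beyond this rule. Of 466 genes in 30 lists 416 were measured. Members and lists were chosen with earlier results of these data known.

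Tables were handled with pandas 2.3.3 and numpy 2.4.6 in Python 3.11.15, intervals came from scipy 1.17.1, and plots from matplotlib 3.10.9. The gap calculation was tried on simulated data with large built-in shifts and little noise between lines. That checks the calculation only, since the real lines differ far more from each other. The single array per line limits the precision.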

Additional observations from a re-analysis of the deposited data

How the results depend on the processing

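The number of genes set apart low in TALL-1 was 37 as reported, 58 with log2(intensity + 1), 21 with log2(intensity + 64) and 16 with the mean of all probe sets. The number set apart high was 12 as reported and 4 with log2(intensity + 64), of which 3 were among the 12. Under a gap of 2.5, an alternative chosen after seeing the data, 3 genes were high and 30 low. A pseudocount of 64 compresses low values by construction. Leaving out 1 other line at a time gave 12 to 19 high genes, 37 to 46 low genes and 1.12 to 1.31 for the median difference of NOTCH targets. Under centred arrays, quantile normalization, the most variable probe set, exclusion of _x_at and _s_at probe sets, or only genes reaching 169, the counts stayed between 9 and 15 high and between 32 and 39 low. The NOTCH target median ran from 0.84 (mean of all probe sets) to 1.37 (most variable probe set). Lists with small median differences changed sign. The median difference of T-lineage transcription factors was 0.0113 with the mean of all probe sets (-0.23 as reported). With the mean of all probe sets the value was 0.0132 for DNA repair genes, 0.0288 for housekeeping genes and -0.0101 for apoptosis genes. With the most variable probe set it was 0.0637, 0.0103 and -0.231 for these lists and -0.0747 for HLA class II genes. The NOTCH cleavage, modification and nuclear partner list had 0.131 with the most variable probe set, and T-ALL transcription factors 0.0277 without _x_at and _s_at probe sets, where housekeeping genes had 0.13. Among genes reaching 169, homing and chemokine receptors had -0.458 (0.05 with all genes), T-cell surface antigens -0.424 (0.13), erythroid and megakaryocytic markers -0.198 (0.10) and HLA class II genes -0.0144 (0.16). Stromal markers had 0.252 with log2(intensity + 1) (-0.02 with 16). PRKD3 had a gap of -0.80 without _s_at probe sets, and SHC3 one of 0.00 with log2(intensity + 1), where another probe set represents it. No paired analysis was possible because each line was measured once.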
